A study of Mus musculus with 24 samples.

Results

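The cytosolic ribosome is built from ribosomal RNA and a fixed set of ribosomal proteins, named Rpl in the large subunit and Rps in the small subunit, and each ribosome carries most of them once. Their mRNAs are abundant in every cell, including neurons and glia of the hippocampus, and many begin with a short run of pyrimidines at the cap (the TOP motif), through which mTORC1 and Larp1 control their translation together. Ribosomal protein genes also have many processed copies in the mouse genome, which matters for reading their counts.

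Members were all gene symbols of the count table that start with Rpl or Rps and a digit, plus Rplp0, Rplp1, Rplp2 and Rpsa, without pseudogene names and without the S6 kinases, that had a mean of at least 10 raw counts per library. Of 24411 genes in the table, 88 symbols matched and 82 passed the minimum, 48 with large subunit and 34 with small subunit names. The counts came from whole hippocampus of male and female mice in 2 animal studies. The aging study held Nanoligomer-treated old mice (Old-Nano, 20 months), untreated old mice (Old, 20 months) and untreated young mice (Young, 9 months), all wildtype C57/B6. The tauopathy study held Nanoligomer-treated rTg4510 mice (rTg4510-Nano), untreated rTg4510 mice and littermate (LM) controls, all aged 3 months and also labelled C57/B6. The rTg4510 line carries a mutant human tau transgene that is switched on by another transgene under the Camk2a promoter, so tau is made mainly in forebrain excitatory neurons. The genotype tag of the LM libraries also reads rTg4510, and their titles and descriptions, which name littermates, were followed. Nanoligomers are antisense peptide nucleic acids joined to gold nanoparticles, here a mix against NF-κB and NLRP3 given repeatedly over a month.

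Each group had 4 libraries, except that the rTg4510 columns M2 and M3 were identical for every gene and were counted as 1 library, which left n = 3 there and 23 libraries in all. Libraries held 17214974 to 27424344 counts. Some libraries carried genes of other brain regions or tissues, measured as the mean log2 CPM (counts scaled to a common library size, with TMM) of a marker list relative to the median library. In Old M1 the 11 striatum markers stood 3.73 and the 11 olfactory bulb markers 3.64 above the median library, and in Young M4 the olfactory bulb markers stood 5.13 above it. The 10 hippocampal neuron markers were low in Old M1 (-2.14), Young M4 (-2.30), rTg4510-Nano M2 (-2.09) and Old-Nano F1 (-1.71). In rTg4510-Nano M2 the 8 hypothalamus markers stood 6.76 above the median library, and in the 3 rTg4510 libraries the 20 choroid plexus markers stood 4.71 to 6.62 above it. The 14 hepatocyte markers stood highest in Young F4 (6.59), Old F3 (5.93) and Young M4 (5.92), and the 7 pituitary markers in rTg4510-Nano M3 (6.41). The family medians of the comparisons that hold Old M1 or Young M4, and the largest single differences with Old M1, are therefore given with and without these libraries.

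The pyrimidine run that marks many of these mRNAs could be seen in the genome sequence at their annotated starts. A run was counted where a C was followed by at least 6 more C or T letters and began within 10 bases of a RefSeq start on the gene's strand, and the starts of 67 of the 88 genes were found in the RefSeq promoter set. It stood at 26 of 79 ribosomal protein promoters (32.9%), against 3650 of 32851 promoters of all genes (11.1%). Windows of 30 bases centred on the start (GRCm38.p6, 5′ to 3′) are shown for some of the members described below, with the run in capitals. Most windows shown were picked with a run. Other members described below, such as Rpl11, Rpl23 and Rpsa, hold no run by this rule. Runs that begin more than 10 bases before the start, as in Rpl4 and Rpl34, were not counted, here or among all promoters. Rpl35a has 3 annotated starts, and the windows at the other two hold no run.
Rpl35a (chr16:33056467-33056496, plus strand): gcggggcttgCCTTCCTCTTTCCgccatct
Rpl35 (chr2:39005117-39005146, minus strand): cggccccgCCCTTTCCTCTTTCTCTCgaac
Rps18 (chr17:33955651-33955680, minus strand): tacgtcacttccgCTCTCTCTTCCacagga
Rplp2 (chr7:141447636-141447665, plus strand): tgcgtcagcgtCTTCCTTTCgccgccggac
Rpl22l1 (chr3:28805493-28805522, plus strand): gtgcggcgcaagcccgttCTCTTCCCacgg
Rps15 (chr10:80292416-80292445, plus strand): cccggcagagctcgcgataactgcgcaagc
Rps15 shows no such run in this window, which says only that these letters are not at the annotated start.

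Members differed in their level per length of transcript, though most lay within a broad band. As mean CPM per kb of transcript over the 23 libraries, the median member stood at 193, and 68 of 82 lay between 50 and 500. Rplp1, an acidic protein of the stalk that recruits translation factors to the ribosome, was highest at 953 CPM per kb, followed by Rps24 (644), Rps15 (599) and Rps29 (518), all of the small subunit. Without the division by length, the largest numbers of counts fell on Rpl4 (518 CPM), Rplp1 (475 CPM) and Rpsa, the small subunit protein also called laminin receptor (421 CPM).

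The 10 members under 50 CPM per kb held copies, the binding protein Rps19bp1 and some core proteins. Among the core proteins, Rps20 (28.3) and Rps15a (23.2) have annotated transcripts of 3706 and 5130 bases, and stood at 105 and 119 CPM without the division by length. Rpl34 had 1.35 and Rps27 had 2.80 CPM per kb, with means of 15.4 and 23.1 counts just inside the minimum of 10. Just outside it were Rpl3l (6.04 counts), Rpl30 (3.70), Rpl39l (1.22) and Rpl26, Rpl10l and Rps27rt, which had no count in any library. Rpl26, Rpl30, Rpl34 and Rps27 are core parts of the ribosome, so these counts cannot be read as their levels. Of the 100-base words of the transcript, 98.4% were also present at other loci for Rps27, 36.8% for Rpl26, 32.5% for Rpl30 and 31.0% for Rpl34. The median member had 36.85%. Some members with far more shared words had high counts, such as Rpl10 (91.6%, 142 CPM), Rps12 (88.9%, 165 CPM) and Rpl9 (87.0%, 238 CPM). How the counting treated reads that match several places is not given in the sources used here, and its part in these low counts was not tested. Over the family, 75 of 82 members shared at least 1 such word with another locus and 29 shared more than 50%, so each single count is uncertain to that extent. Words shared with an overlapping gene at the same locus are not in these shares. They came to 54.8% for Rpl36al and 52.3% for Rpl35, which are described below.

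**Figure D1:**
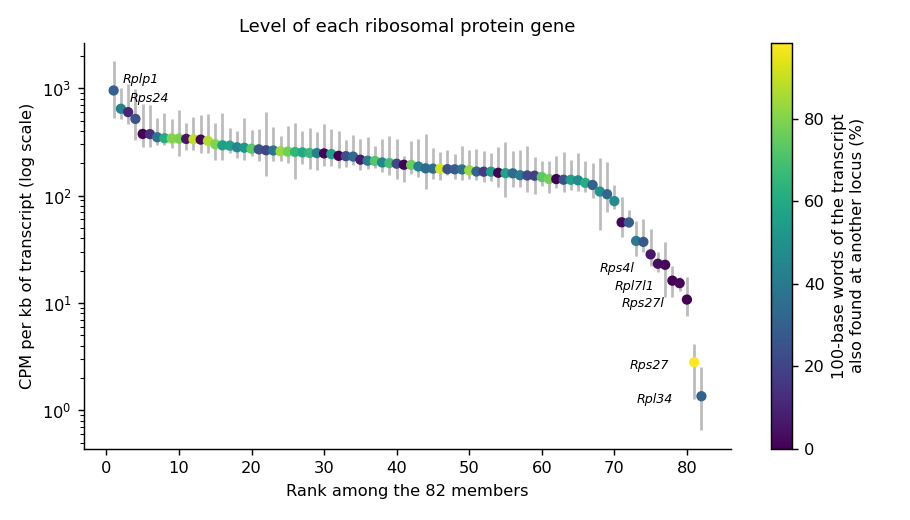
Mean CPM per kb of transcript (log scale) of the 82 ribosomal protein genes, ranked, with lines from the lowest to the highest of 23 libraries and color for the percentage of 100-base words found at other loci. Of the 82 members, 68 lie between 50 and 500 CPM per kb. Above this band lie 4 members, with Rplp1 highest, and below it lie 10, with Rps27 and Rpl34 lowest.

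The level of the family varied more between libraries than the place of a typical member within it. The log2 CPM of the median member had an SD of 0.24 over the 23 libraries, which includes the difference between the 2 studies, and a pooled SD of 0.14 within groups. The position of a member relative to the median member of its library had an SD of 0.11 for the typical gene (0.085 within groups), and under 0.2 for 66 of 82. The largest SD belonged to Rps4l (0.47), annotated in GENCODE as a transcribed processed pseudogene, Rpl29 (0.45), Rps27 (0.41), Rps27l (0.31) and Rpl34 (0.30). Of these, Rps27, Rps27l and Rpl34 are the 3 members with the fewest counts. Relative to the median member, Rps4l ran from -4.04 log2 units in Old M1 to -2.16 in Young F2.

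Ribosomal protein genes took a small and slightly variable share of all counts. The share was 1.39%, 1.39%, 1.56% and 1.47% in Old-Nano libraries, 1.40%, 1.64%, 2.19% and 1.49% in Old libraries, and 1.19%, 1.26%, 1.37% and 1.66% in Young libraries. It was 1.09%, 1.21%, 1.32% and 1.23% in rTg4510-Nano libraries, 1.19%, 1.25% and 1.23% in rTg4510 libraries, and 1.27%, 1.34%, 1.15% and 1.18% in LM libraries. The highest old library was M1 and the highest young library was M4, the same libraries that carried markers of other brain regions. In bulk tissue, more RNA per cell and more cells of a type rich in these mRNAs cannot be told apart.

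**Figure D2:**
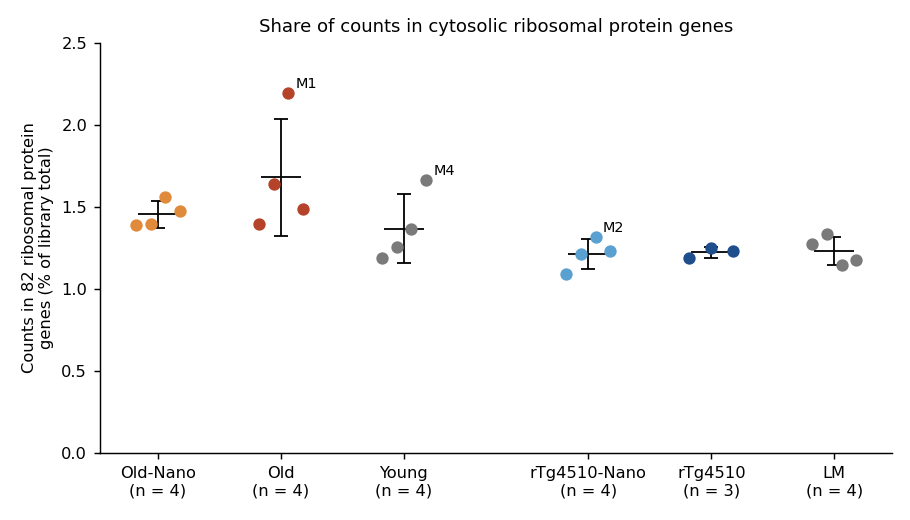
Percentage of all counts that fell in the 82 ribosomal protein genes, 1 point per library, with the group mean and SD as bars and the libraries with markers of other brain regions named. Old M1 (2.19%) and Young M4 (1.66%) lie above the rest of their groups, and the 11 libraries of the tauopathy study lie between 1.09% and 1.34%.

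The first comparison asks how the family differed with age. Nearly all members had higher values in old than in young mice, but no single gene passed the test. The share of counts averaged 1.68 ± 0.356% in Old and 1.37 ± 0.21% in Young mice (SD, n = 4 each), and the groups overlapped. Of 82 members, 80 had a positive log2 fold change, with a median of 0.30, against -0.026 for all 15335 genes tested. No member passed the edgeR quasi-likelihood test at a Benjamini-Hochberg adjusted p of 0.05, where 0.013% of all genes did, and none did with DESeq2, which called 1.48% of all genes. An unadjusted p under 0.05 was seen for 9 members, 10.98% of the family, against 10.3% of all genes. The values of 9 members did not overlap, being higher in all Old than in all Young libraries, which held for 4.52% of all genes. These members were Rps15, Rpl38, Rpl37, Rpl12, Rps20, Rpl37rt, Rplp1, Rpl10 and Rpl36a, and none was lower without overlap, as 3.1% of all genes were.

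Rplp1 had 542, 611, 892 and 615 CPM in Old mice, against 466, 474, 517 and 491 CPM in Young mice. All Old libraries lay above all Young ones, with M1 far above the others. The log2 fold change was 0.45 (SE, the standard error, 0.17; edgeR adjusted p = 0.437). Its partner in the stalk, Rplp2, had 0.26 (SE 0.15, adjusted p = 0.574), and Rplp0, the base on which both are anchored, 0.24 (SE 0.13, adjusted p = 0.57). Their values overlapped between the groups.

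Rps15, a protein of the small subunit head, had 327, 348, 553 and 328 CPM in Old mice, against 254, 259, 308 and 262 CPM in Young mice. On the log2 scale the difference was 0.52 (SE 0.19, adjusted p = 0.436). With it, the highest values were those of the barely counted Rpl34 (0.54, SE 0.35) and of Rps14 (0.52, SE 0.25), a protein of the small subunit platform. At the low end stood Rps4l (-0.26, SE 0.24), Rpl22 (-0.066, SE 0.12) and Rps15a (0.020, SE 0.12).

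Much of the size of this difference rested on single libraries. Without Old M1 the median of the family was 0.13, with 76 members positive, and without Young M4 it was 0.39. With both left out it was 0.22, with 80 members positive and still none past the threshold. In that fit 38 of 82 members had an unadjusted p under 0.05, a larger share than the 14.8% of all genes. The members share these libraries, so their number is no test of the family. Without Old M1 alone, the log2 fold change was 0.27 for Rplp1 (SE 0.10), 0.29 for Rps15 (SE 0.11), 0.21 for Rps14 (SE 0.14), 0.30 for Rpl34 (SE 0.34) and 0.12 for both Rplp2 (SE 0.11) and Rplp0 (SE 0.10). The part that the markers of other regions have in the result was not tested beyond leaving these libraries out. Markers of glia also had higher values in Old than in Young mice, with a median log2 fold change of 0.77 for 12 microglia markers. Of these, 1 passed the threshold, and none without Old M1. The 7 oligodendrocyte markers had 0.40 (none passed), and 0.16 without Old M1 and Young M4. The 14 hepatocyte markers were all lower in Old mice, with a median of -1.07, and of -0.46 without Old M1 and Young M4. The part of all these markers in the result was not tested.

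Treated old mice had slightly lower values than untreated old mice in nearly all members, by an amount that depended on Old M1. The median log2 fold change was -0.21, against -0.0021 for all 15257 genes, and 1 member was positive. No member passed the threshold by edgeR or by DESeq2 (0% of all genes did by either tool), and none had an unadjusted p under 0.05 by edgeR, where 1.21% of all genes did. No member's values were without overlap between the groups, where 0.247% of all genes were higher and 0.455% lower without overlap. Rps14 had 191, 171, 195 and 184 CPM in Old-Nano mice, against 166, 203, 360 and 197 CPM in Old mice, so that 3 Old libraries lay on both sides of the treated range and M1 far above it. Its log2 fold change was -0.33 (SE 0.23, adjusted p = 1.0), followed by Rps15 (-0.31) and Rps19 (-0.29). Rpsa had 446, 429, 461 and 455 CPM in Old-Nano mice, against 421, 495, 698 and 448 CPM in Old mice. Without Old M1 the median of the family was -0.030, with 9 members positive, and the values of Rps14, Rps15, Rps19 and Rpsa were -0.023 (SE 0.099), -0.082 (SE 0.077), -0.026 (SE 0.082) and -0.020 (SE 0.089).

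Set against young mice, treated old mice had slightly higher values. The median log2 fold change of Old-Nano minus Young was 0.11, with 72 members positive and a median of -0.016 for all 15368 genes, and no member passed the threshold by edgeR (0.00651% of all genes did) or DESeq2 (1.7%). By edgeR, 3 had an unadjusted p under 0.05, against 10.5% of all genes. Rps21 of the small subunit had 0.27 (SE 0.084, adjusted p = 0.398) and Rps10 0.26 (SE 0.091, adjusted p = 0.414). At the low end, Rpl22, which binds RNA in the large subunit, had -0.19 (SE 0.11). Values of Rpl38, Rpl37, Rps21 and Rpl36a were higher in all treated old than in all young libraries, 4 of 82 where 4.07% of all genes were, and none was lower, where 2.59% were. This comparison shares the Old-Nano libraries with the one above and the Young libraries with the one before it. Without Young M4 the median was 0.19.

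**Figure D3:**
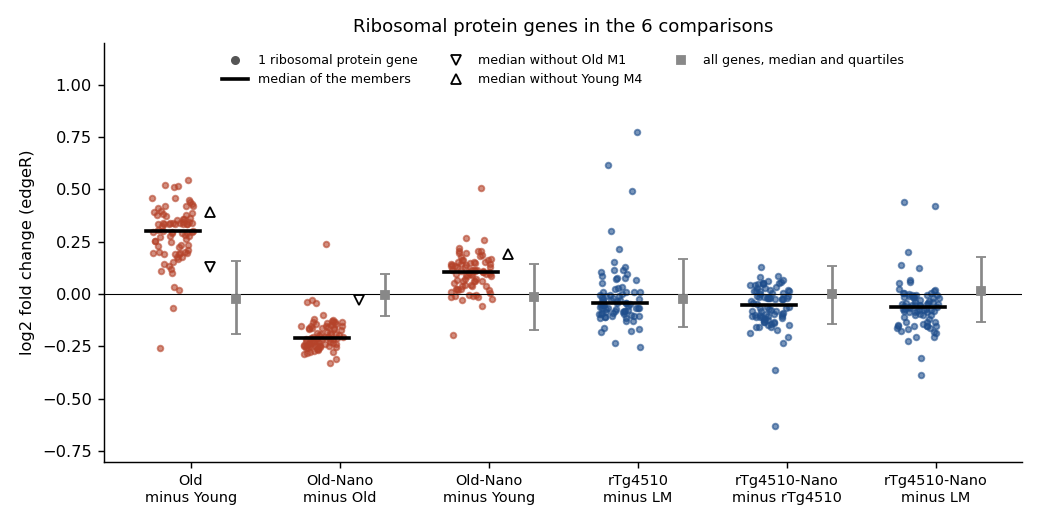
Log2 fold changes of the 82 members in 6 comparisons (1 point per gene), with the median of the members as a black line, triangles for that median without Old M1 or Young M4, and gray squares with lines for the median and quartiles of all genes. The family lies above 0 in Old minus Young (median 0.30) and below 0 in Old-Nano minus Old (median -0.21), and both medians come closer to 0 without Old M1.

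The tauopathy comparison asks the same of rTg4510 mice and their littermates, and here the family as a whole lay at the level of other genes. The median log2 fold change was -0.044, against -0.023 for all 15166 genes, and 24 of 82 members were positive. No member passed the threshold by edgeR, which called 0.917% of all genes, or by DESeq2, which called 4.93%. An unadjusted p under 0.05 by edgeR was seen for 2 members, against 14.1% of all genes. The share of counts averaged 1.22 ± 0.0337% in rTg4510 (SD, n = 3) and 1.23 ± 0.0861% in LM mice (SD, n = 4). The groups overlapped.

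The 2 members with a small unadjusted p went opposite ways. Rps27l, a paralogue of Rps27 known in human cells as a p53 target, had 5.42, 8.67 and 6.84 CPM in rTg4510 mice, against 4.95, 4.43, 4.22 and 4.27 CPM in LM mice. All rTg4510 values lay above all LM values, with a log2 fold change of 0.62 (SE 0.19, edgeR adjusted p = 0.201). Rpsa had 354, 335 and 366 CPM in rTg4510 mice, against 429, 441, 378 and 405 CPM in LM mice, a log2 fold change of -0.25 (SE 0.095, adjusted p = 0.288). Together with Rpl34 (higher) and Rpl3 (lower) these were the members without overlap, 2 of 82 higher and 2 lower, where 7.91% and 5.31% of all genes were. The rTg4510 libraries were also those with choroid plexus markers, summed to 4900 to 20449 CPM there and 51.7 to 276 CPM in LM mice, and their part in these values was not tested. The other extremes were Rps27 (0.49, SE 0.43) at the top, and Rps2 (-0.23, SE 0.12) and Rpl4 (-0.18, SE 0.10) at the bottom.

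Treatment of rTg4510 mice left the family near 0. The median log2 fold change of rTg4510-Nano minus rTg4510 was -0.053, against 0.0019 for all 15358 genes, with 24 members positive and none past the threshold by edgeR (0.0456% of all genes did) or DESeq2 (1.42%). By edgeR, 1 had an unadjusted p under 0.05, against 5.57% of all genes. Rps27l had 3.80, 3.73, 5.34 and 5.04 CPM in rTg4510-Nano mice, against 5.42, 8.67 and 6.84 CPM in rTg4510 mice. All treated values lay below all untreated ones, with a log2 fold change of -0.63 (SE 0.23, edgeR adjusted p = 0.767). The comparison uses the same rTg4510 libraries as the one with LM mice. In all, 7 members (Rpl37a, Rps18, Rps14, Rps20, Rpl13, Rps27l and Rpl10) were lower without overlap, 8.54% of the family where 4.34% of all genes were, and none was higher, where 2.51% were. Against LM mice, rTg4510-Nano mice had a median of -0.062, with 15 members positive and none past the threshold by edgeR (0.0263% of all genes did) or DESeq2 (0.33%). By edgeR, 4 had an unadjusted p under 0.05, against 7.98% of all genes. Of the members, 6 were lower without overlap, where 2.56% of all genes were, and none was higher, where 2.41% were. Rps14 was lowest there, with a log2 fold change of -0.38 (SE 0.10, edgeR adjusted p = 0.613). It had 99.4, 113, 90.0 and 109 CPM in rTg4510-Nano mice, against 148, 138, 122 and 130 CPM in LM mice. The 90.0 CPM was that of M2, the library with hypothalamus markers, and the other treated values were also below all LM values.

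Whether the family behaved differently in the 2 models was tested as a difference of differences. For the disease contrast, (Old minus Young) minus (rTg4510 minus LM), the median of the members was 0.34, against -0.020 for all genes, and no member passed the threshold (0.404% of 15330 genes did). Of the members, 11 had an unadjusted p under 0.05, against 9.38% of all genes, and without Old M1 the median was 0.18. For the treatment contrast the median was -0.15 and without Old M1 it was 0.0089, with no member past the threshold (0.143% of all genes did) and none at an unadjusted p under 0.05 (4.04% were). No library enters a contrast on both of its sides.

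Members passed the test only between the 2 animal studies, in comparisons added after their values had been seen. Rpl29, a small basic protein of the large subunit that mice can live without, was higher in every library of the aging study than in any of the tauopathy study. It had 97.5, 93.5, 107 and 103 CPM in Old-Nano, 96.5, 105, 158 and 104 CPM in Old, and 86.7, 100.2, 103 and 114 CPM in Young mice. In the tauopathy study it had 49.0, 45.2, 34.1 and 47.7 CPM in rTg4510-Nano, 50.1, 42.9 and 45.8 CPM in rTg4510, and 54.9, 55.2, 43.6 and 43.2 CPM in LM mice. The 12 and 11 libraries did not overlap. Ages, colonies, any difference in genetic background and any processing batch go along with the study and cannot be told apart. Every label gives the strain as C57/B6, and the paper does not name the background of the rTg4510 line. The summed level of 14 hepatocyte markers also differed between the studies, at 4.53 to 39.0 CPM in Old-Nano, 8.07 to 582 CPM in Old and 6.04 to 785 CPM in Young mice, against 1.002 to 2.71 CPM in rTg4510-Nano, 1.15 to 2.80 CPM in rTg4510 and 1.01 to 2.04 CPM in LM mice, and its part in these values was not tested. The summed level of 7 pituitary markers was lower in Young than in LM mice and in Old than in rTg4510 mice without overlap, while both treated groups overlapped. It was 2.22 to 7.14 CPM in Old-Nano, 1.46 to 3.38 CPM in Old and 1.78 to 24.3 CPM in Young mice, against 5.79 to 1817 CPM in rTg4510-Nano, 7.59 to 71.3 CPM in rTg4510 and 39.8 to 498 CPM in LM mice, and its part in these values was not tested.

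Between the untreated controls of the studies, Young minus LM, Rpl29 had a log2 fold change of 1.04 (SE 0.12, edgeR adjusted p = 0.0315), the only member called, where 0.0591% of all genes were called higher and 0.131% lower. DESeq2 called 8 members higher and none lower, 9.76% of the family against 2.22% of all genes called higher and 1.37% lower. The values of 13 members were higher in all Young than in all LM libraries, where 5.39% of all genes were, and none was lower, where 4.44% were. Rpl35a, a large subunit protein, had the next smallest p, with 0.61 (SE 0.10, edgeR adjusted p = 0.101), and Rps4l had the next largest difference, 0.87 (SE 0.29, adjusted p = 0.259). Rpl35a had 84.0, 92.5, 96.7 and 114 CPM in Young mice, against 67.3, 64.5, 60.1 and 60.7 CPM in LM mice. Rpl29 lost its call in 7 of the 8 fits that left out 1 library, where its log2 fold change was 0.98 to 1.10, and it also lost the call with total counts in place of TMM (1.05) or with the sex letter as a covariate (1.04).

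The treated groups of the studies, which share no library with the controls, were compared in the same way. In Old-Nano minus rTg4510-Nano the median of the members was 0.30, against 0.0013 for all genes, and 77 of 82 were positive. edgeR called 18 members higher and none lower, 21.95% of the family where 0.593% of all genes were called higher and 0.424% lower. DESeq2 called 52 higher and none lower, where 4.66% and 4.95% of all genes were. Without overlap, 57 members were higher and none lower, where 8.45% and 6.83% of all genes were. Rpl29 had 1.18 (SE 0.12, adjusted p = 0.00563), Rpl35a 0.86 (SE 0.076, adjusted p = 0.00297), Rps2 0.84 (SE 0.12, adjusted p = 0.0253) and Rps18 0.79 (SE 0.082, adjusted p = 0.00578). Without rTg4510-Nano M2, the library with hypothalamus markers, 16 members were called. The count was 14 without Old-Nano F2 and 7 without Old-Nano F1, and 4 without any one of Old-Nano M2, Old-Nano M5, rTg4510-Nano F1, rTg4510-Nano F2 and rTg4510-Nano M3. Rpl29, Rpl35a, Rps14 and Rps18 were called in each of these 8 fits, while Rps2 was called in 3. Of the 8 members called by DESeq2 between the controls, 7 were called by DESeq2 between the treated groups, where 63.4% of all members were. By edgeR 6 of them were called there, where 21.95% of all members were.

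**Figure D4:**
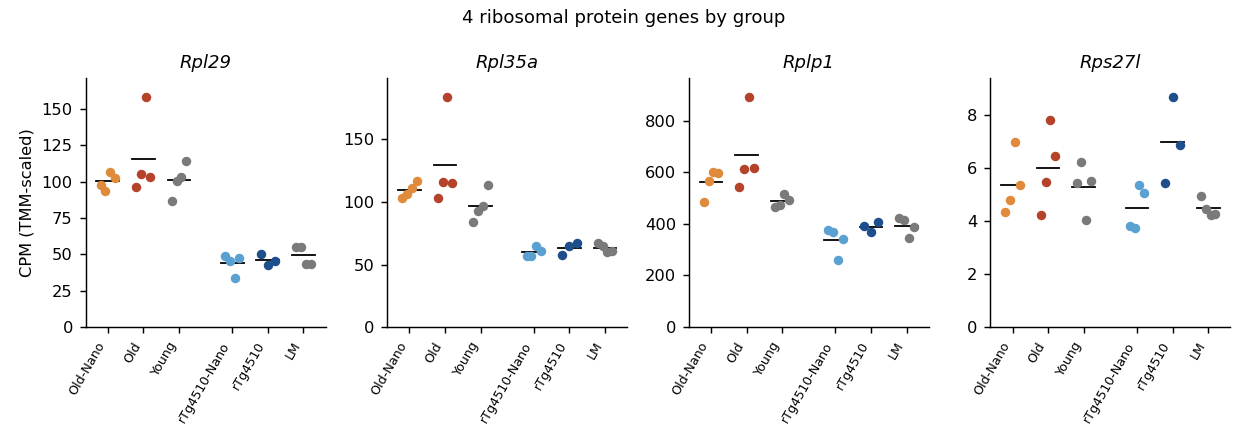
CPM of Rpl29, Rpl35a, Rplp1 and Rps27l, 1 point per library, with the group mean as a line. Rpl29 and Rpl35a lie higher in every library of the aging study, Rplp1 is highest in Old M1 (892 CPM), and Rps27l has its highest group mean in rTg4510 mice (5.42 to 8.67 CPM), whose range overlaps that of the aging study.

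Across all 12 libraries of the aging study against all 11 of the tauopathy study, 10 members were higher without overlap and none was lower, 12.2% of the family where 0.729% of all genes were higher and 0.527% lower. They included Rpl29, Rpl35a, Rpl3 and Rplp1 of the large subunit and Rps2, Rps13, Rps18, Rps28 and Rps29 of the small subunit. The share of transcript words found at other loci ran from 24.7% for Rps29 to 79.4% for Rpl3 among those named, with 50.1% for Rpl29.

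The studies also differed in the balance within the family. Members were also placed relative to the median member of the same library. Rpl29, Rpl35a, Rps18 and Rps29 then stood higher in every library of the aging study than in any of the tauopathy study. Rpl35, Rpl11, Rpl23, Rps24, Rpl23a and Rpl27a stood lower. On this scale 0.039% of all genes were higher and 2.6% lower, but these shares are no baseline for the members. The median member itself had a mean log2 CPM of 7.32 to 7.64 in the aging groups and 7.10 to 7.16 in the tauopathy groups. Subtracting it moves every gene down in the aging study. Rpl29 was at -0.92 to -0.60 log2 units in the aging study and -1.999 to -1.39 in the tauopathy study. Rpl35, whose name differs from that of Rpl35a by a letter but which is an unrelated protein, was at -0.74 to -0.50 in the aging study and -0.40 to -0.08 in the tauopathy study. Rpl11 and Rpl23 are both known to bind Mdm2, the ligase that holds p53 in check. The mean difference between the studies had a Pearson correlation of 0.27 with the GC content of the transcript over 79 members of at least 10 CPM, given as a description, since all members share the same libraries.

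**Figure D5:**
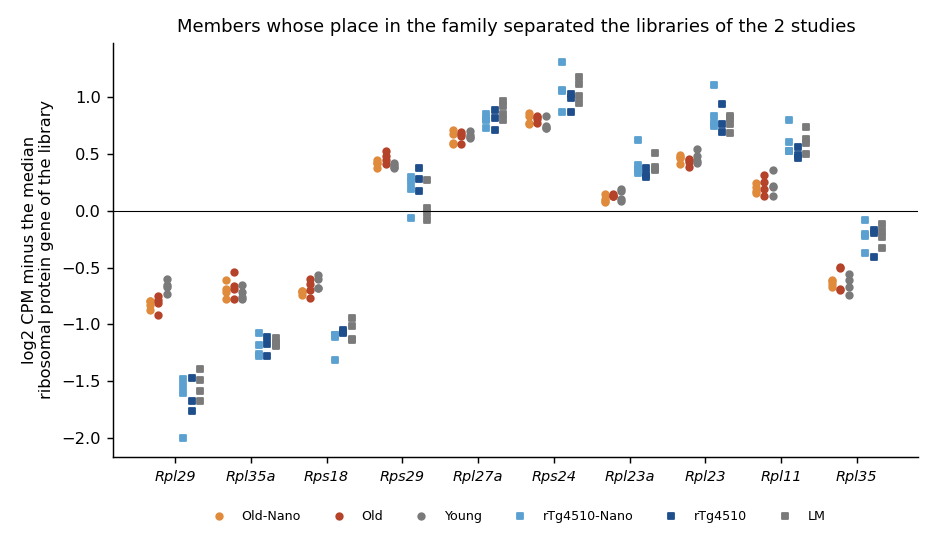
Log2 CPM of 10 members minus that of the median ribosomal protein gene of the same library, 1 point per library, with circles for the aging study and squares for the tauopathy study. The circles and squares do not overlap for any of these genes, and Rpl29 shows the widest gap.

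The copies of ribosomal protein genes were counted at a fraction of the genes they are named after, and the group ranges given here overlapped within each study, except those of Rpl36al in Old-Nano and Young mice. Rpl22l1, a paralogue that can take the place of Rpl22, had 27.6 ± 3.94 counts per 100 of Rpl22 in Old-Nano, 27.6 ± 2.80 in Old and 22.2 ± 2.81 in Young mice (SD, n = 4 each). In the tauopathy study it had 21.3 ± 7.28 in rTg4510-Nano (n = 4), 17.8 ± 1.14 in rTg4510 (n = 3) and 20.2 ± 2.25 in LM mice (n = 4). The wide spread of rTg4510-Nano came from M2, at 32.04. Rpl36al had 32.5 ± 1.82 counts per 100 of Rpl36a in Old-Nano, 32.02 ± 4.01 in Old and 36.6 ± 1.37 in Young mice, against 39.4 ± 3.71 in rTg4510-Nano, 39.7 ± 4.59 in rTg4510 and 36.4 ± 1.76 in LM mice. Rpl37rt, annotated as a transcribed processed pseudogene, had 14.04 ± 0.906 counts per 100 of Rpl37 in Old-Nano, 14.1 ± 0.769 in Old and 13.8 ± 0.21 in Young mice, against 17.7 ± 0.762 in rTg4510-Nano, 16.7 ± 2.07 in rTg4510 and 16.9 ± 1.81 in LM mice. With Rps27 nearly uncounted, the ratio of Rps27l to it has no use.

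A pair of members are not structural parts of the ribosome. Rpl7l1, a nucleolar relative of Rpl7, had 18.2 ± 1.60 counts per 100 of Rpl7 in Old-Nano, 17.5 ± 3.84 in Old and 18.8 ± 2.52 in Young mice. Rps19bp1, a protein that binds Rps19 and Sirt1, had a log2 fold change of 0.081 in rTg4510-Nano minus rTg4510 mice (SE 0.19, adjusted p = 0.993).

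A pair of ribosomal proteins whose symbols fall outside the naming rule had values like the members. Fau, which encodes a ubiquitin-like fusion with Rps30, had 168 ± 51.2 CPM in Old and 126 ± 22.4 CPM in Young mice (SD, n = 4 each), a log2 fold change of 0.41 (SE 0.22, adjusted p = 0.554), and of 0.17 (SE 0.15) without Old M1. Rack1, a scaffold on the small subunit listed under its older name Gnb2l1, had 0.18 (SE 0.19), and 0.026 (SE 0.16) without Old M1. In Old-Nano minus Old mice Fau had -0.27 (SE 0.19) and Rack1 -0.19 (SE 0.14), against -0.029 (SE 0.077) and -0.042 (SE 0.091) without Old M1, and neither passed the threshold in any comparison.

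With all libraries, other parts of the translation machinery had medians closer to 0 with age than the ribosomal proteins, which is a description and was not tested. Without Old M1 the ribosomal proteins had 0.13, the respiratory chain 0.015, the TOP factors -0.0078 and the mitochondrial ribosomal proteins -0.0050. The RNA polymerase I genes were at -0.061, mTORC1 genes at -0.066, initiation and termination factors at -0.069, biogenesis factors at -0.071 and S6 kinases at -0.10. The Myc and p53 genes, at -0.17, were farther from 0 than the family. With Young M4 also left out, the ribosomal proteins had 0.22, the respiratory chain 0.044, the TOP factors 0.078 and the mitochondrial ribosomal proteins 0.0022. The other lists named here then ran from -0.073 (biogenesis factors) to 0.038 (mTORC1 genes). With all libraries, the 19 TOP mRNAs of translation factors had a median of 0.071 in Old minus Young mice, with 10 positive, including Tpt1 (0.33, SE 0.19) and Eef2, the translocation factor (0.22, SE 0.15), while Npm1, a nucleolar chaperone, had -0.052 (SE 0.088). The 24 initiation and termination factors had a median of -0.031, the 37 ribosome biogenesis factors -0.051 and the 13 genes of RNA polymerase I -0.086, against -0.026 for all genes. Of mTORC1 and its regulators, 31 genes, the median was -0.048, with -0.32 for Mtor (SE 0.14, adjusted p = 0.485) and 0.92 for Eif4ebp1, the repressor of cap-dependent initiation (SE 0.26, adjusted p = 0.355). The 10 ribosomal S6 kinase genes had a median of -0.041 and the 8 Myc and p53 genes -0.23. The 77 mitochondrial ribosomal proteins had a median of 0.066, with 61 positive, and the 76 tested subunits of the respiratory chain 0.14, with 63 positive. None of these genes passed the threshold in Old minus Young or in Old-Nano minus Old mice.

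In the tauopathy model these lists were near 0 as well. The 19 TOP translation factors had a median of -0.078 in rTg4510 minus LM mice, the 37 biogenesis factors -0.12, the 31 genes of mTORC1 -0.058 and the 77 mitochondrial ribosomal proteins -0.029. Of these lists, 1 gene was called, the respiratory chain subunit Cox8b, with a log2 fold change of 5.57 in the libraries with choroid plexus markers (SE 0.80, adjusted p = 0.0283). In rTg4510-Nano minus rTg4510 mice no gene of these lists was called, and the medians were 0.029 for the TOP translation factors, 0.028 for the biogenesis factors and 0.010 for mTORC1.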

How the data were processed

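The authors deposited whole-number read counts per gene symbol, not normalized, from poly(A)-selected Illumina libraries that were trimmed with fastp and aligned to mm10 with STAR. The counting program, its strand setting and its treatment of multi-mapping reads were not given in the sources used here. The members, gene lists and tests were chosen with earlier results of these data known.

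For each comparison, only the libraries of its groups were fitted, with edgeR 4.0.16 in R 4.3.3 (TMM, mean normalized count of at least 10, robust quasi-likelihood, two-sided), with Benjamini-Hochberg adjustment over all genes tested and a threshold of 0.05. Standard errors were derived from the F statistic. CPM were TMM-scaled, and log2 CPM used a prior count of 2. The labels name no animals, so p-values measure the spread between libraries. Named genes were those past the threshold, the 3 highest and 3 lowest members of each comparison, copies, stalk proteins, Rpsa, and the most, least and most variably expressed members. Transcript lengths, GC content and shared words of 100 bases came from GENCODE M21 (GRCm38), and start sequences from RefSeq (GRCm38.p6). The test was tried on simulated data. Alternatives were DESeq2 1.42.0, its size factors, total counts, other count minimums, a sex covariate, joint fits, a replicate block, both identical columns and libraries left out. Python 3.11.15 made the tables and plots. Some genes are not reported here.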

Additional observations from a re-analysis of the deposited data

Results flagged for a closer look

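In 10 cases out of 145 groups of 4 libraries tested, 1 library stood apart from the other 3 by Dixon's test at the 95% level, and chance flags about 1 in 20 groups. Old M1 was above the other Old libraries in log2 CPM for Rps15 (9.11), Rps19 (7.31), Rpl37rt (5.38), Rpl22l1 (4.998) and Rps19bp1 (4.22). This library had the highest share of counts in ribosomal protein genes and carried striatum and olfactory bulb markers. Old-Nano F1, which was low in hippocampal neuron markers, was below the other Old-Nano libraries for Rps2 (7.995), Rps26 (6.73) and Rpl22 (6.12). Young M1 was above the other Young libraries for Rps15 (8.27). In rTg4510-Nano M3, which carried pituitary markers, Rpl4 (8.91) was above the other rTg4510-Nano libraries.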

How the results depend on the processing

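In the 6 planned comparisons and both differences between models, the count of members past the threshold was 0 under each alternative run. Leaving out 1 library moved the median log2 fold change of the members to 0.13 to 0.39 in Old minus Young, -0.29 to -0.030 in Old-Nano minus Old, 0.18 to 0.41 in the disease contrast between models and -0.24 to 0.0089 in the treatment contrast, with Old M1 left out at 1 end of each range. Leaving out the libraries with markers of other regions gave -0.030 in Old-Nano minus Old. In Young minus LM, which was chosen after the data were seen, the count of 1 became 0 with total counts in place of TMM or with the sex letter as a covariate, 2 without the libraries of other regions, 8 with DESeq2, and 0 to 2 with 1 library left out. In Old-Nano minus rTg4510-Nano, also chosen then, the count of 18 became 7 with total counts and 52 with DESeq2, 12 with no filter or with the sex covariate, and 4 to 16 with 1 library left out.

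Labels shared by 2 groups give only a sex letter and a number. Libraries with the same label did not deviate together in every pair (correlations of -0.295 to 0.377 where 2 labels were shared, and 0.442 and 0.502 for the single shared label F2 of Old-Nano with Old and with Young). With a replicate block the median in Old minus Young was 0.47 and no call changed. Old-Nano shares 1 label with Old and with Young, so no block could be fitted there.

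A few members near 0 changed sign, and their ranges with 1 library left out are given. In Old minus Young, Rpl22 was 0.0028 with the replicate block and -0.15 to 0.018 with 1 library left out, and Rps15a was -0.029 to 0.13. In Old-Nano minus Old, Rps15a was -0.061 to 0.0070, the upper value without Old M1, the only library of another region there, and Rpl7l1 was -0.066 to 0.017. In rTg4510 minus LM, Rplp1 was 0.0060 with total counts and -0.091 to 0.023 with 1 library left out. In rTg4510-Nano minus rTg4510, Rps19bp1 was -0.079 with the block and -0.010 to 0.21 with 1 library left out. In Old-Nano minus Young, Rps26 was -0.12 to 0.0075, the upper value without Young M4, and in rTg4510-Nano minus LM, Rps27 was -0.030 with the block. Counting error limits Rpl34, Rps27 and Rps27l, with 15.4, 23.1 and 127 counts per library.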
